A study of Mus musculus with 13 samples.

Results

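Auranofin given alone was compared with the Western diet alone in the aortas of mice that lack apolipoprotein E. The comparison takes the 3 libraries labelled with the diet and auranofin at 3 mg/kg/day (auranofin 1 to 3) and the 5 libraries labelled with the Western diet and no drug (WD 1 to 5), 8 of the 13 libraries in the series. All groups share the ApoE-/- genotype and 16 weeks of Western diet begun at 6 weeks of age, so the WD libraries too come from diet-fed, atherosclerosis-prone mice. The other 5 libraries are 2 from mice given auranofin at 3 mg/kg/day with atorvastatin at 10 mg/kg/day (combination) and 3 from mice given atorvastatin at 10 mg/kg/day alone. The drugs were supplied with the diet after mice were randomized. RNA came from whole aorta, and nothing in the labels says which animal a library came from, so p-values measure only the spread between these samples, which may be technical.

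Auranofin is a gold compound long used against rheumatoid arthritis. It binds the selenocysteine of thioredoxin reductases, the enzymes that keep thioredoxin reduced, and cells under this stress are known to switch on NRF2 target genes, heme oxygenase and metallothioneins, while NF-kB signalling is known to be damped. ApoE-/- mice clear remnant lipoproteins poorly, and on a Western diet their arterial wall collects foamy macrophages while smooth muscle cells lose contractile genes and lay down matrix. A whole aorta also holds endothelium, adventitial fibroblasts, lymphoid cells and the surrounding fat, part of which is brown. In such bulk tissue fewer cells of a type and less RNA per cell cannot be told apart.

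The 8 libraries held 22219720 to 26079566 counts, with a mean of 23910000 (SD 317000, n = 3) with auranofin and 23910000 (SD 1540000, n = 5) in WD. Apoe, the gene disrupted in this strain, stood at 13.1, 26.9 and 8.9 CPM in the auranofin libraries, against 17.5, 15.9, 6.21, 14.6 and 15.6 CPM in the WD libraries. These levels do not check the genotype, since wild-type aorta was not analysed here. Library 2 of each group had the highest mitochondrial share and the lowest scaling factor of its group, though in this share WD 2 was close to WD 5. Genes of the mitochondrial genome took 38.8% of counts in auranofin 2 and 16.0% to 24.0% in the other auranofin libraries, against 26.9% in WD 2 and 9.36% to 24.2% in the other WD libraries. The group means of this share were 26.3% (SD 11.5) with auranofin and 18.7% (SD 7.29) in WD, with an exact two-sided permutation p of 0.339 over 56 splits, where 0.0179 is the smallest possible. The TMM scaling factors were 0.629 in auranofin 2 and 0.639 in WD 2, against 0.801 to 1.23 in the other 6 libraries. Auranofin 2 was the highest of the 8 libraries for 14.9% of genes and the lowest for 18.1%, and WD 2 was the highest for 26.2% and the lowest for 24.4%. WD 5 was near auranofin 2 by this measure, the highest for 14.5% and the lowest for 16.5%. Fold changes and list medians are therefore given with and without auranofin 2.

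No gene passed. Of 18055 genes tested with the quasi-likelihood test of edgeR, 0 (0%) had an adjusted p under 0.05, and the smallest adjusted p was 0.671. At an unadjusted p under 0.05 there were 489 genes higher with auranofin, 2.71% of those tested, and 684 lower, 3.79%. DESeq2 passed 2 genes, Foxs1 lower and Ighg2c higher with auranofin, and limma with quality weights passed 0. The 3 auranofin libraries all lay above the 5 WD libraries for 262 genes (1.45%) and all below them for 239 (1.32%). Over all genes tested the median log2 fold change was -0.04. Values below are CPM, counts scaled to the TMM-adjusted library size, listed for auranofin 1 to 3 and for WD 1 to 5 in that order. They are not corrected for gene length, so levels are comparable within a gene and not between genes. Log2 fold changes are auranofin over WD with a standard error (SE).

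Without auranofin 2 the fit covered 17979 genes and 0 of them passed, with a smallest adjusted p of 0.737. Unadjusted, 133 genes were then higher with auranofin (0.74%) and 245 lower (1.36%), or 118 and 147 when WD 2 was left out as well. The genes counted next were picked with auranofin 2 among the libraries, so their counts are descriptions. Of the 684 genes with a lower level, all 684 kept a negative fold change without that library, and 149 kept an unadjusted p under 0.05. Of the 489 with a higher level, 462 could be fitted again, 451 kept a positive fold change and 79 kept an unadjusted p under 0.05.

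On the lower side Foxs1, a forkhead factor, had the smallest p. Of the 12 ranked first, none of which passed over all genes, 11 are described here: Foxs1, Bik, Fhl2, Creb3l1, Cav3, Uchl1, Dhrs3, Mrgprf, Serinc2, Tagln2 and Tesc. In 11 of the 12, all but Serinc2, every auranofin library lay below every WD library, a property of 1.32% of all genes tested; since the genes were ranked on the same libraries, this is a description. All 12 kept a negative fold change without auranofin 2.

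Foxs1, a forkhead transcription factor known from pericytes and perivascular cells of the mouse, stood at 7.88, 3.43 and 9.94 CPM in the auranofin libraries, against 24.7, 25, 18.6, 15.7 and 42.4 CPM in the WD libraries. The highest auranofin library lay below the lowest WD library. The means were 7.08 ± 3.33 CPM with auranofin (SD, n = 3), against 25.3 ± 10.4 CPM in WD (SD, n = 5), and the log2 fold change was -1.82 (SE 0.39) with an edgeR adjusted p of 0.671, or -1.50 without auranofin 2. Creb3l1, a transcription factor released from the endoplasmic reticulum membrane that drives collagen secretion in mouse bone, stood at 22.1, 24.6 and 28.1 CPM in the auranofin libraries, against 42.2, 31.3, 42.1, 38.4 and 37.5 CPM in the WD libraries. Its difference was the smallest of the 12 and its libraries lay close together, with a log2 fold change of -0.62 (SE 0.16), and -0.61 without auranofin 2. Dhrs3, which reduces retinaldehyde and so limits retinoic acid, stood at 63.9, 84 and 103 CPM in the auranofin libraries, against 150.5, 145, 122, 112 and 158 CPM in the WD libraries. The auranofin libraries were all below the lowest WD library, and the log2 fold change was -0.72 (SE 0.20), and -0.72 without auranofin 2.

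Fhl2 encodes a LIM-domain protein of heart and smooth muscle that binds serum response factor, and Fhl2 is itself a known target of that factor. The factor binds the CArG box, CC, then 6 bases that are A or T, then GG. The 2 RefSeq promoter windows of Fhl2 (250 bases before to 50 after the start, build GRCm38.p6, minus strand) are shown because they were the only ones with this box among the named lower genes; the box is in capitals and begins at positions -96 and -31 relative to the start. The windows are chr1:43196712-43197011 and chr1:43163912-43164211.
Fhl2 window 1: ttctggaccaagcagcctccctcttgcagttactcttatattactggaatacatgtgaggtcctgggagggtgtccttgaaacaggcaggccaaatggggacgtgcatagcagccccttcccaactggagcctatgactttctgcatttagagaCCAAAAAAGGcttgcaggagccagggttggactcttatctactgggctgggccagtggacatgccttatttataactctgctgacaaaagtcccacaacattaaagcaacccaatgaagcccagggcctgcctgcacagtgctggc
Fhl2 window 2: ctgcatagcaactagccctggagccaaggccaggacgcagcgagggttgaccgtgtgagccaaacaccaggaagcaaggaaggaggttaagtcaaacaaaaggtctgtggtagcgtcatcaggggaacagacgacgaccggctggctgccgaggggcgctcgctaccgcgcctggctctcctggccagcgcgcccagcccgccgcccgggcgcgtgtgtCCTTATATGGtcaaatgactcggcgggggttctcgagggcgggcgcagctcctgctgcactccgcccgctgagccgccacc
A box was found on either strand in 1 of 7 named lower genes with a window (14.3%), in 0 of 9 named higher genes and in 1 of 10 genes of the contractile smooth muscle list, against 204 of 12182 tested genes with a window (1.67%). A match is only a match of letters, and the missing ones say nothing about binding elsewhere. Fhl2 itself stood at 7.93, 8.5 and 8.23 CPM in the auranofin libraries, against 20.9, 23.6, 10.7, 25.2 and 16.6 CPM in the WD libraries. The 3 auranofin libraries were within 1 CPM of each other and the WD libraries spread widely above them. The log2 fold change was -1.24 (SE 0.31), and -1.26 without auranofin 2.

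The other lower genes differ in what they are known for. Cav3, the caveolin of muscle membranes, stood at 10.8, 4.74 and 10.2 CPM in the auranofin libraries, against 21, 33.4, 13.7, 13.9 and 28.9 CPM in the WD libraries. Tagln2, an actin-binding relative of transgelin, stood at 274, 273 and 355 CPM in the auranofin libraries, against 574, 754, 432, 394 and 729.9 CPM in the WD libraries. For both genes WD 2 and WD 5 were the highest libraries, and WD 3 and WD 4 lay closest to the auranofin values. The log2 fold changes were -1.36 (SE 0.36) for Cav3 and -0.94 (SE 0.28) for Tagln2, or -1.08 and -0.87 without auranofin 2. Tesc, a calcium-binding protein, stood at 3.25, 2.11 and 4.99 CPM in the auranofin libraries, against 5.8, 11.7, 5.93, 5.84 and 11.1 CPM in the WD libraries, with a log2 fold change of -1.21 (SE 0.36; -0.97 without auranofin 2). Mrgprf, an orphan receptor of the Mas-related family, stood at 17, 7.77 and 22.3 CPM in the auranofin libraries, against 41.3, 25, 40.4, 23.6 and 42.5 CPM in the WD libraries, with a log2 fold change of -1.13 (SE 0.33; -0.81 without auranofin 2). Uchl1, a ubiquitin hydrolase best known from neurons, stood at 31.7, 31.6 and 49.7 CPM in the auranofin libraries, against 81.1, 96.2, 64.4, 54.1 and 129 CPM in the WD libraries, with a log2 fold change of -1.17 (SE 0.33; -1.06 without auranofin 2). WD 5 was the highest library for Mrgprf and Uchl1. Serinc2, a membrane protein of the serine incorporator family, had a log2 fold change of -1.17 (SE 0.34; -0.89 without auranofin 2), and auranofin 3 at 6.14 CPM lay above WD 3 at 5.60 CPM.

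**Figure D1:**
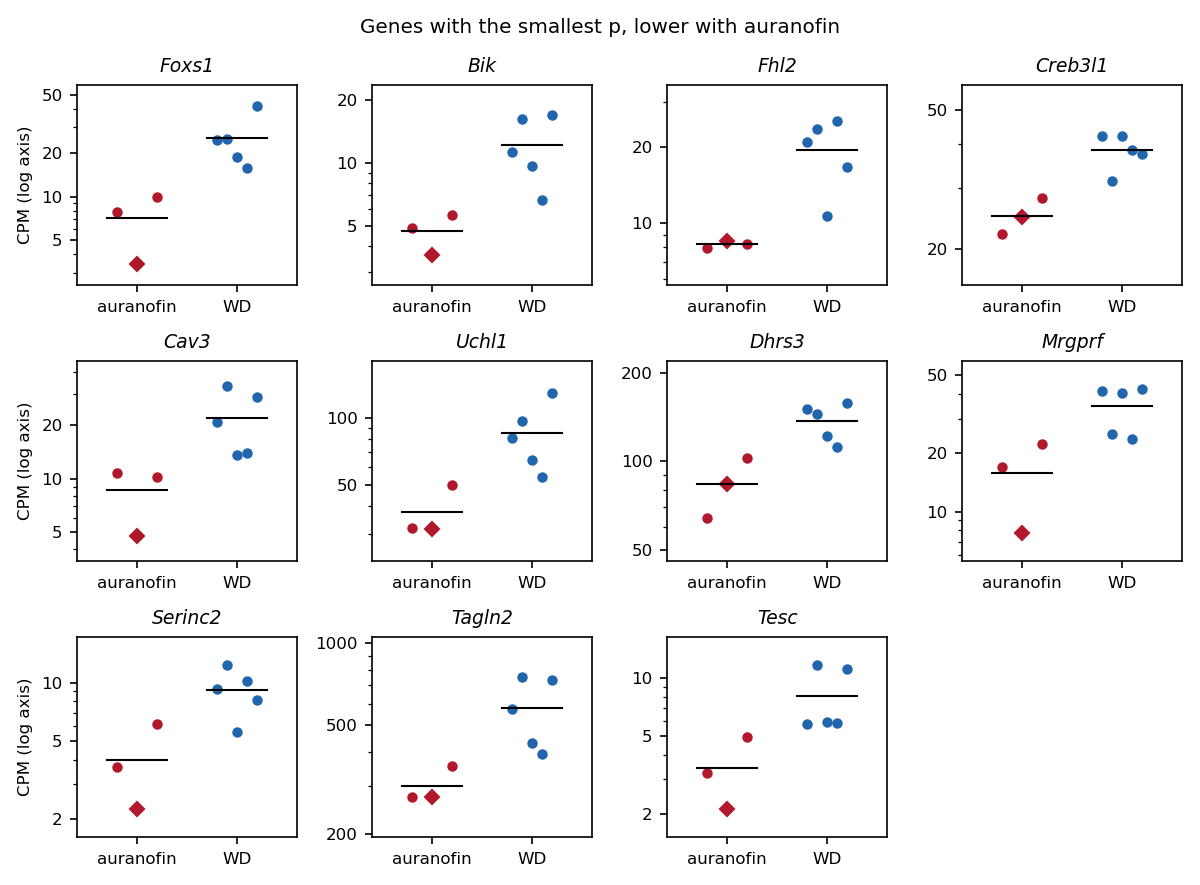
CPM on a log axis of 11 genes with the smallest p on the lower side, in the 3 auranofin libraries (left, auranofin 2 as a diamond) and the 5 WD libraries (right); horizontal lines are group means. In every panel but that of Serinc2 the highest auranofin library lies below the lowest WD library, as for Foxs1 with 9.94 CPM in auranofin 3 and 15.7 CPM in WD 4.

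The contractile smooth muscle list was also fitted lower, and its part in these genes was not tested. Its 14 members, such as Acta2, Tpm2 and Actg2, summed to 20888, 8270.3 and 21514 CPM in the auranofin libraries, against 23335, 33985, 26477, 17772 and 38656 CPM in the WD libraries. The median log2 fold change of the members was -0.76, and -0.39 without auranofin 2, against -0.04 in either case over all genes. With all libraries 4 of 14 had an unadjusted p under 0.05 and were lower, against 3.79% of all genes, and without auranofin 2 none of the 14 did, against 1.36%. Acta2, smooth muscle actin, stood at 9722, 4741 and 10258 CPM in the auranofin libraries, against 12116, 22512, 11918, 8788 and 20924 CPM in the WD libraries. Auranofin 2 was the lowest library and WD 2 and WD 5 the highest, while auranofin 1 and 3 lay among the other WD libraries. Myh11, the heavy chain of smooth muscle myosin, followed another order, at 3646, 745 and 3268 CPM in the auranofin libraries, against 2959, 837, 4409, 2735 and 3026 CPM in the WD libraries; here auranofin 2 and WD 2 were the low libraries, and the log2 fold change was -0.13 (SE 0.54; 0.31 without auranofin 2). Tpm2, a tropomyosin, and Des, desmin, had log2 fold changes of -1.04 (SE 0.45) and -0.84 (SE 0.37), or -0.72 and -0.62 without auranofin 2.

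Matrix genes were fitted lower with auranofin in all but 1 of 24, with a median log2 fold change of -0.43. Without auranofin 2 the median was -0.17 and 18 of 24 were lower. Unadjusted, 2 of 24 were lower at a p under 0.05, Col1a1 and Loxl1, against 3.79% of all genes, and without auranofin 2 it was 1 of 24, against 1.36%. Col1a1 was the only 1 of 24 whose groups did not overlap, against 1.32% of all genes. Col1a1, a chain of type I collagen, stood at 485, 540.1 and 785 CPM in the auranofin libraries, against 1067, 1082, 931, 1028 and 833 CPM in the WD libraries. Its log2 fold change was -0.71 (SE 0.25), and -0.64 without auranofin 2. Loxl1, which crosslinks elastin, stood at 144, 109 and 233 CPM in the auranofin libraries, against 259, 329.7, 269, 203 and 370.4 CPM in the WD libraries, and auranofin 3 lay within the WD range. Col6a2, a chain of type VI collagen, had a log2 fold change of -0.70 (SE 0.39), and -0.35 without auranofin 2, which held the lowest level of the 8. Of the 16 cartilage and calcification genes 14 were lower, with a median of -0.53, and 0 had an unadjusted p under 0.05. The median was -0.28 without auranofin 2 and ran from -0.83 without auranofin 3 to -0.022 without WD 1 over the libraries left out in turn. Mgp, which inhibits calcification of the vessel wall, stood at 2729, 2573 and 3034 CPM in the auranofin libraries, against 4281, 11660.4, 2924, 3275 and 2986 CPM in the WD libraries, with a log2 fold change of -0.85 (SE 0.46; -0.80 without auranofin 2). WD 2 stood far above the other 7 libraries, and without it the log2 fold change was -0.28. Of the 14 genes of modulated smooth muscle and pericytes 12 were lower, with a median of -0.29 (-0.23 without auranofin 2), Foxs1 among them. Kcnj8, a potassium channel subunit of pericytes, had a log2 fold change of -0.71 (SE 0.26; -0.55 without auranofin 2). The 12 adventitial fibroblast genes had a median of -0.07 (-0.14 without auranofin 2).

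Genes of cell death and division were mostly fitted lower as well. Bik, a BH3-only protein that promotes apoptosis, stood at 4.88, 3.62 and 5.62 CPM in the auranofin libraries, against 11.3, 16.3, 9.64, 6.65 and 17 CPM in the WD libraries. Its log2 fold change was -1.36 (SE 0.34), and it was -1.21 without auranofin 2. The pore-forming death proteins Bak1 and Bax had log2 fold changes of -0.59 (SE 0.23; -0.67 without auranofin 2) and -0.92 (SE 0.40; -1.04 without auranofin 2). Bak1 stood at 16.8, 21.4 and 20.4 CPM in the auranofin libraries, against 27.9, 42.9, 22.1, 21.8 and 32.7 CPM in the WD libraries, where auranofin 2 came within 1 CPM of WD 4. Of the 13 BCL2 family genes tested 10 were lower, with a median of -0.30, and -0.37 without auranofin 2. The list holds proteins that promote death and proteins that prevent it. For 2 of the 13, Bik and Bak1, every auranofin library lay below every WD library, against 1.32% of all genes tested. Unadjusted, 3 of the 13 were lower at a p under 0.05, against 3.79% of all genes, and 2 without auranofin 2, against 1.36%. All 18 cell cycle genes had a negative fold change in both settings, with medians of -0.40 and -0.42, and 0 of 18 had an unadjusted p under 0.05. Over the libraries left out in turn the median ran from -0.65 without auranofin 3 to -0.14 without WD 2. Cdk1, the mitotic kinase, stood at 1.04, 3.23 and 2.68 CPM in the auranofin libraries, against 4.01, 8.29, 1.88, 4.6 and 1.37 CPM in the WD libraries. Auranofin 1, WD 3 and WD 5 were the low libraries, and they were also low for macrophage genes. Immediate early genes had a median of -0.48, and -0.58 without auranofin 2, with 13 and 15 of 16 lower. Zfp36, which destabilizes cytokine mRNAs, stood at 108, 97.9 and 74.3 CPM in the auranofin libraries, against 155, 174, 135, 98 and 179 CPM in the WD libraries, and Egr1, a growth factor response gene, at 126, 94 and 118 CPM in the auranofin libraries, against 199, 105, 241, 151 and 179 CPM in the WD libraries. Neither was free of overlap between groups.

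On the higher side the 12 genes with the smallest p were Jchain, Ighg2c, Igkc, Rsad2, Zfp366, Tgm4, Ackr4, Aph1b, Bcl6b, Kitl, Scn3b and Ighm. A further ranking, by the fit without auranofin 2 among genes whose groups do not overlap, added Rnf152, Trim67, Abca6 and Nr1d2. Since it used the same libraries, the lack of overlap and the difference without auranofin 2 are descriptions for these added genes. None of the 16 passed over all genes. The antibody genes rested on auranofin 2. Igkc, the kappa light chain, stood at 7.93, 707 and 12.8 CPM in the auranofin libraries, against 2.61, 10.8, 6.01, 3.0 and 11.4 CPM in the WD libraries, and Ighm, the heavy chain of IgM, at 19.5, 619.9 and 47.4 CPM in the auranofin libraries, against 24.4, 60.2, 16.8, 36.4 and 32.8 CPM in the WD libraries. Jchain, which joins secreted IgM and IgA, stood at 0.667, 134 and 1.97 CPM in the auranofin libraries, against 0.68, 0.841, 1.23, 0.767 and 0.456 CPM in the WD libraries. Without auranofin 2 the log2 fold changes were 0.62 for Igkc, -0.03 for Ighm and 0.73 for Jchain, against 5.17 (SE 1.22), 2.75 (SE 0.80) and 5.82 (SE 1.26) with it. Ighg2c, an IgG heavy chain, was the exception, at 2.0, 151 and 7.49 CPM in the auranofin libraries, against 0.322, 0.30, 1.51, 0.402 and 0.254 CPM in the WD libraries. All 3 auranofin libraries lay above the WD libraries, though auranofin 1 exceeded WD 3 by less than 1 CPM, and the log2 fold change was 6.54 (SE 1.43), and 3.06 without auranofin 2. IgG heavy chains share near-identical stretches, so reads of one may have been counted to another. Tgm4, a transglutaminase known from prostate, stood at 1.04, 17.7 and 1.12 CPM in the auranofin libraries, against 0.823, 0.54, 0.858, 1.39 and 0.811 CPM in the WD libraries, and its log2 fold change was 0.28 without auranofin 2.

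For 6 other genes on the higher side auranofin 1, not auranofin 2, was the highest library. Kitl, stem cell factor, the ligand of the KIT receptor, stood at 44.2, 40.05 and 29.2 CPM in the auranofin libraries, against 17.4, 12.9, 28.4, 23 and 21.4 CPM in the WD libraries. The lowest auranofin library, at 29.2 CPM, lay just above the highest WD library, and the log2 fold change was 0.87 (SE 0.25), and 0.83 without auranofin 2. Rnf152, a lysosomal ubiquitin ligase, stood at 11.6, 9.22 and 9.31 CPM in the auranofin libraries, against 5.33, 3.9, 7.27, 5.95 and 5.07 CPM in the WD libraries. Its groups did not overlap, which the ranking that added it required, and its log2 fold change was 0.87 (SE 0.26), and 0.92 without auranofin 2. Nr1d2, the clock repressor REV-ERB beta, stood at 145, 114 and 142 CPM in the auranofin libraries, against 46.3, 71.4, 109, 68.5 and 101 CPM in the WD libraries. WD 3 and WD 5 lay close below the auranofin libraries, WD 1 far below them, and the log2 fold change was 0.76 (SE 0.29; 0.86 without auranofin 2). The labels used here give no hour of collection. Among the 14 clock genes Npas2, a partner of the clock activator BMAL, went the other way, at 5.26, 1.98 and 7.34 CPM in the auranofin libraries, against 31.3, 1.92, 18.6, 23.6 and 4.72 CPM in the WD libraries, and the list's median was 0.26, and 0.36 without auranofin 2 and 0.0365 without auranofin 1. Abca6, a transporter of the lipid-carrying ABCA family, stood at 4.38, 3.16 and 3.35 CPM in the auranofin libraries, against 1.43, 1.62, 2.04, 2.92 and 1.17 CPM in the WD libraries, with a log2 fold change of 0.98 (SE 0.35; 1.06 without auranofin 2). Trim67, a tripartite-motif protein, stood at 5.96, 4.28 and 2.05 CPM in the auranofin libraries, against 0.823, 0.0601, 0.94, 1.57 and 0.609 CPM in the WD libraries, low levels that give a log2 fold change of 2.32 (SE 0.72; 2.28 without auranofin 2). Zfp366, a zinc finger protein known from dendritic cells, stood at 8.3, 6.46 and 2.72 CPM in the auranofin libraries, against 1.79, 1.14, 2.41, 3.14 and 1.37 CPM in the WD libraries, and auranofin 3 lay within the WD range.

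For Bcl6b, Ackr4, Scn3b and Aph1b auranofin 2 was the highest library and the other auranofin libraries also lay above the highest WD library. For Aph1b the margin was small, with auranofin 3 at 19.48 CPM and WD 3 at 19.33 CPM. Bcl6b, a transcriptional repressor, stood at 17.7, 35.3 and 12.8 CPM in the auranofin libraries, against 9.56, 9.55, 9.97, 12.7 and 4.51 CPM in the WD libraries, and its log2 fold change was 1.24 (SE 0.35), and 0.72 without auranofin 2. Ackr4, a scavenger receptor for chemokines, stood at 3.17, 12.1 and 3.35 CPM in the auranofin libraries, against 2.33, 1.86, 1.88, 2.37 and 2.59 CPM in the WD libraries, and its log2 fold change was 1.48 (SE 0.39), and 0.56 without that library. Scn3b, an auxiliary subunit of sodium channels, stood at 4.13, 9.29 and 3.8 CPM in the auranofin libraries, against 2.76, 1.38, 2.29, 3.36 and 2.64 CPM in the WD libraries. Its log2 fold change was 1.19 (SE 0.34), and 0.67 without auranofin 2. Aph1b, a gamma-secretase subunit, had a log2 fold change of 0.67 (SE 0.19), and 0.45 without auranofin 2; it has a near-identical neighbour, Aph1c, so its count is uncertain.

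**Figure D2:**
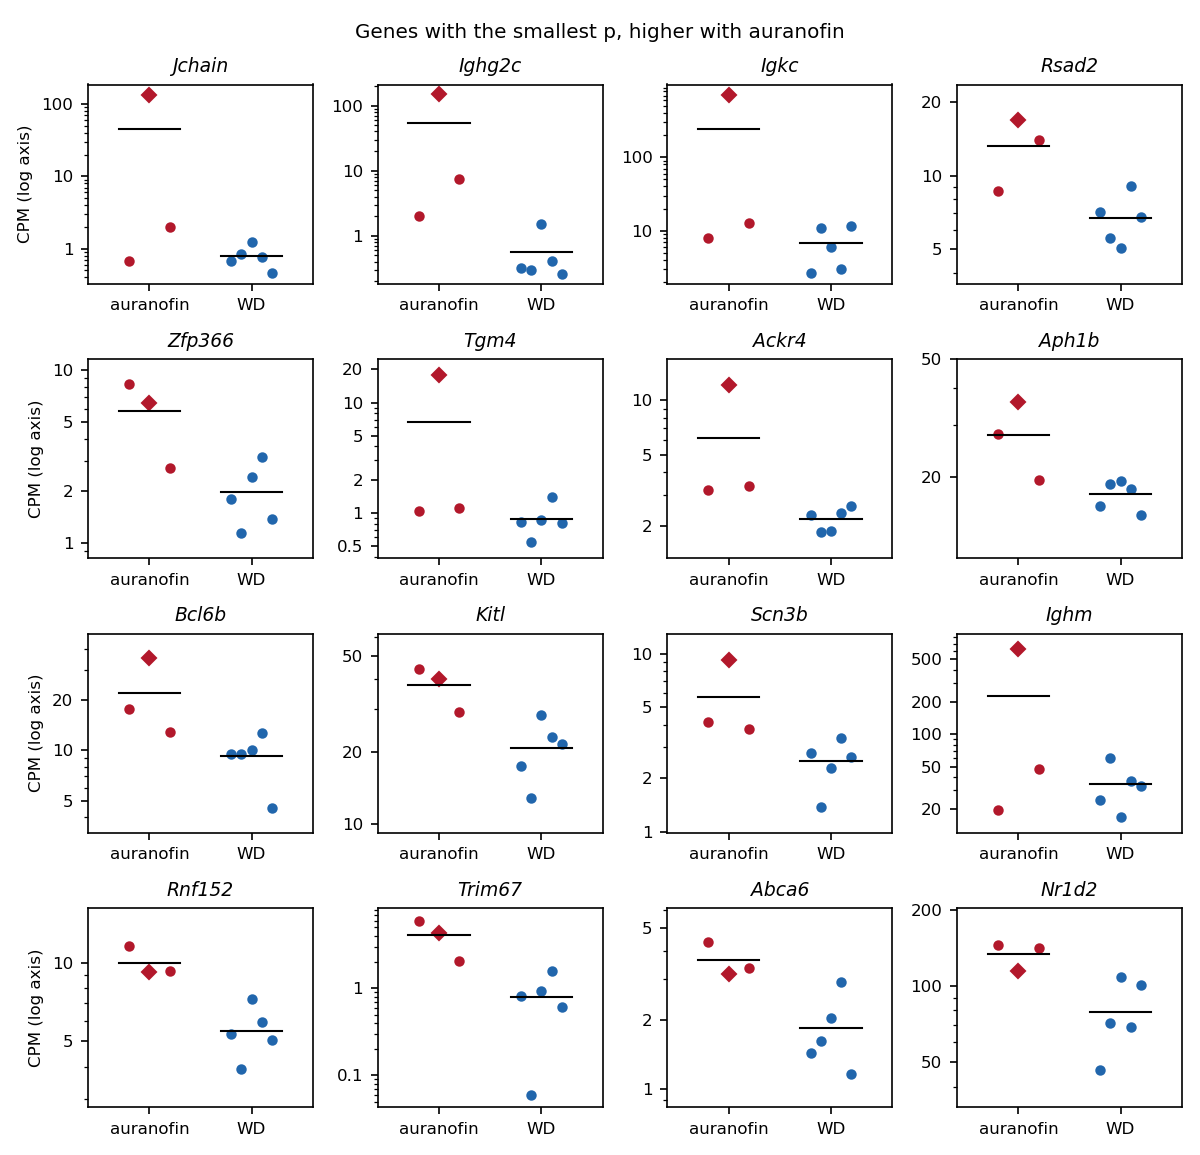
CPM on a log axis of the 16 named genes on the higher side, in the 3 auranofin libraries (left, auranofin 2 as a diamond) and the 5 WD libraries (right); horizontal lines are group means. Igkc reaches 707 CPM in auranofin 2 and 7.93 and 12.8 CPM in the other auranofin libraries, inside the WD range of 2.61 to 11.4 CPM and just above it, while the 3 auranofin libraries of Kitl lie together at 29.2 to 44.2 CPM.

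Of the 38 lists that of B cells had the highest median, and it rested on auranofin 2. All 14 B cell genes were higher, 8 of them at an unadjusted p under 0.05, against 2.71% of all genes, with a median log2 fold change of 2.29. Without auranofin 2 the median was 0.15, 9 of 14 were higher and 0 had an unadjusted p under 0.05. The summed level of the list was 123, 1504 and 165 CPM in the auranofin libraries, against 102, 138, 117, 120.5 and 175 CPM in the WD libraries, and auranofin 2 alone stood apart. Cd79a, a signalling chain of the B cell receptor, stood at 0.918, 22 and 3.13 CPM in the auranofin libraries, against 0.608, 1.68, 1.19, 0.804 and 4.77 CPM in the WD libraries. Plasma cell genes, 9 of 12 listed, had a median of 1.24, and 0.39 without auranofin 2; Mzb1, Tnfrsf17 and Ighg1 were too low to be tested. T cell genes were higher in 14 of 14, with a median of 1.04, and 0.53 without auranofin 2, where 11 of 14 were higher. The 14 T cell genes summed to 30.7, 54.2 and 14.4 CPM in the auranofin libraries, against 17.8, 23.3, 20.1, 11.4 and 8.16 CPM in the WD libraries, so auranofin 1 and 2 lay above the WD libraries and auranofin 3 among them. Cd3e, a chain of the T cell receptor complex, stood at 0.667, 1.52 and 0.298 CPM in the auranofin libraries, against 0.251, 0.36, 0.613, 0.183 and 0.0507 CPM in the WD libraries, low levels throughout. Thymocyte genes were higher in 8 of 8 tested in both settings, with medians of 1.22 and 1.04 and 0 of 8 at an unadjusted p under 0.05. They summed to 37.1, 48.4 and 23.2 CPM in the auranofin libraries, against 7.69, 10.7, 34.7, 18.7 and 15 CPM in the WD libraries, and WD 3 was nearly as high as auranofin 1. Much of this sum was 1 member, Cd1d1, at 12.8, 31.2 and 18.4 CPM with auranofin, against 4.08 to 14.4 CPM in WD. The mean log2 CPM of the list was 1.62, 0.87 and -0.71 in the auranofin libraries, against -1.44 to 1.48 in WD. By that measure auranofin 2 and 3 lay within the WD range. Tcf7, a transcription factor of T cell development, stood at 8.59, 7.25 and 1.42 CPM in the auranofin libraries, against 1.93, 2.34, 6.54, 1.32 and 1.22 CPM in the WD libraries. Rag2 and Ptcra of this list were too low to be tested. Neutrophil genes had a median of 0.53, and -0.21 without auranofin 2.

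**Figure D3:**
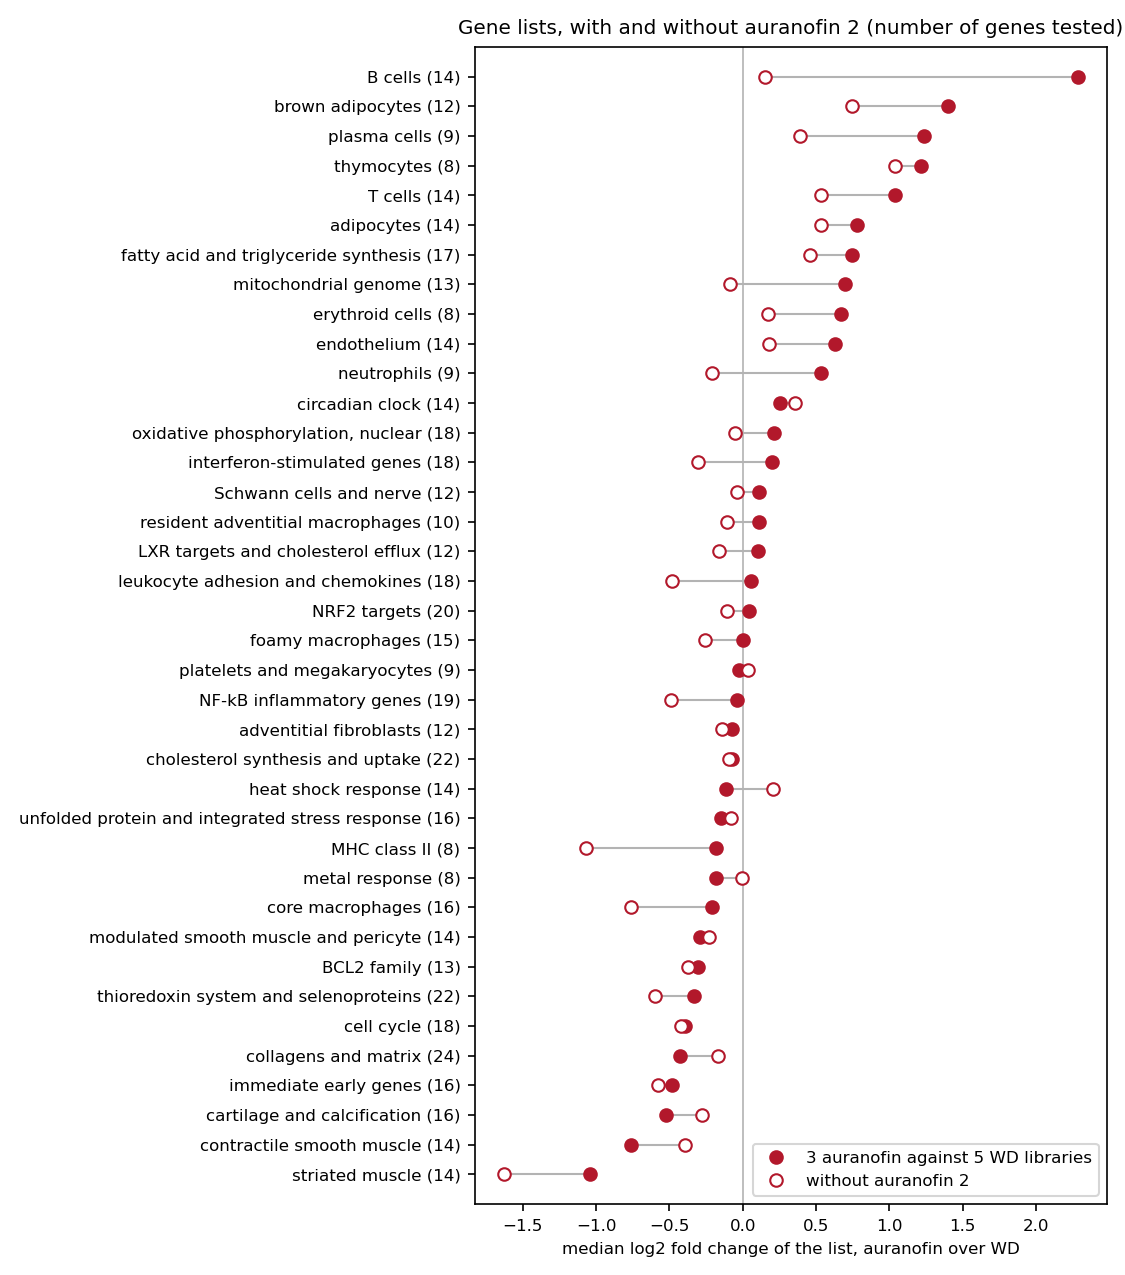
Median log2 fold change (auranofin over WD) of the tested members of each of the 38 gene lists, with all 3 auranofin libraries and without auranofin 2; the line at 0 marks no difference. The B cell median is 2.29 with auranofin 2 and 0.15 without it, whereas the thymocyte median is 1.22 and 1.04 and the cell cycle median -0.40 and -0.42.

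Genes of fat were fitted higher with auranofin, and their lists kept positive medians without auranofin 2. Brown adipocyte genes were higher in 11 of 12, 6 of them at an unadjusted p under 0.05, against 2.71% of all genes, with a median log2 fold change of 1.4. Without auranofin 2 all 12 were higher, with a median of 0.75 and 1 at an unadjusted p under 0.05, against 0.74% of all genes. The list summed to 1642, 3401 and 706 CPM in the auranofin libraries, against 275, 351, 1207, 647 and 744 CPM in the WD libraries. Auranofin 1 and 2 were the highest libraries, WD 3 came next, and auranofin 3 lay within the WD range. Ucp1, the uncoupling protein of brown fat, stood at 744, 1817 and 257 CPM in the auranofin libraries, against 50.03, 117, 584, 153 and 251 CPM in the WD libraries, which follows the same order. Ppargc1a, a coactivator of mitochondrial biogenesis, stood at 19.2, 14.8 and 4.92 CPM in the auranofin libraries, against 2.47, 1.86, 6.58, 4.75 and 3.55 CPM in the WD libraries, with a log2 fold change of 1.75 (SE 0.51; 1.64 without auranofin 2). General adipocyte genes had a median of 0.78, and 0.54 without auranofin 2, and summed to 3276, 5133 and 2619 CPM in the auranofin libraries, against 1257, 1941, 2292, 2812 and 2429 CPM in the WD libraries. Adipoq, adiponectin, stood at 137, 202 and 105 CPM in the auranofin libraries, against 26.9, 75.2, 81.6, 119 and 104 CPM in the WD libraries; WD 4 lay above auranofin 3, and WD 1 far below all others. Pparg, the master regulator of fat cells, stood at 45.1, 58.6 and 27.9 CPM in the auranofin libraries, against 15, 19.9, 31.3, 26.7 and 20.2 CPM in the WD libraries. Fatty acid and triglyceride synthesis genes were higher in 16 of 17 in both settings, with medians of 0.75 and 0.46. Elovl6, a fatty acid elongase, stood at 88, 158 and 46.9 CPM in the auranofin libraries, against 11.3, 9.07, 111, 29.6 and 34.7 CPM in the WD libraries, and WD 3 lay between auranofin 1 and auranofin 2. Gpam, the first enzyme of triglyceride assembly, had a log2 fold change of 1.19 (SE 0.46), and 0.96 without auranofin 2. The amount of fat in each aorta sample was not measured here, and its part in these lists was not tested.

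Endothelial genes were higher in 13 of 14 with all libraries, 5 of them at an unadjusted p under 0.05, against 2.71% of all genes, with a median of 0.63. Without auranofin 2 the median was 0.18, 8 of 14 were higher and 0 were higher at an unadjusted p under 0.05. The list summed to 1320.1, 3268 and 1079.9 CPM in the auranofin libraries, against 1076, 946, 1043, 1448 and 1258 CPM in the WD libraries, so auranofin 2 stood alone. Pecam1, a junction protein, stood at 532, 1427 and 396 CPM in the auranofin libraries, against 361, 293, 361, 504 and 419 CPM in the WD libraries, and Tek, the angiopoietin receptor, at 61.8, 174 and 45.1 CPM in the auranofin libraries, against 42, 26.1, 46.1, 68.3 and 34.9 CPM in the WD libraries. Erythroid genes had a median of 0.67, and 0.17 without auranofin 2. In this list Car2, a carbonic anhydrase, stood at 5.05, 9.62 and 4.92 CPM in the auranofin libraries, against 1.25, 4.14, 1.76, 4.2 and 2.48 CPM in the WD libraries. The groups of Car2 and Slc4a1, the anion exchanger of red cells, did not overlap, against 1.45% of all genes tested with every auranofin library above every WD library, while the summed level of the list, mostly globin, ran from 2502 to 9558 CPM with auranofin, against 1089.9 to 11347 CPM in WD. Klf1, Ahsp, Epb42 and Car1 were too low to be tested.

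Genes of striated muscle were high in 2 WD libraries, WD 1 and WD 4. Myh6, a cardiac myosin heavy chain, stood at 0.709, 1.05 and 0.0745 CPM in the auranofin libraries, against 96.5, 0.30, 0.0817, 162 and 0.101 CPM in the WD libraries, and Actc1, cardiac actin, at 2.5, 4.55 and 1.53 CPM in the auranofin libraries, against 79.2, 5.1, 2.41, 128 and 7.05 CPM in the WD libraries. WD 1 and WD 4 held these heart transcripts and the other 6 libraries little of them. The list summed to 29.1, 25.6 and 125 CPM in the auranofin libraries, against 402, 27.3, 137, 548 and 75.8 CPM in the WD libraries, with a median of -1.04, and -1.63 without auranofin 2. By this sum auranofin 3 lay above WD 2 and WD 5 and close to WD 3.

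**Figure D4:**
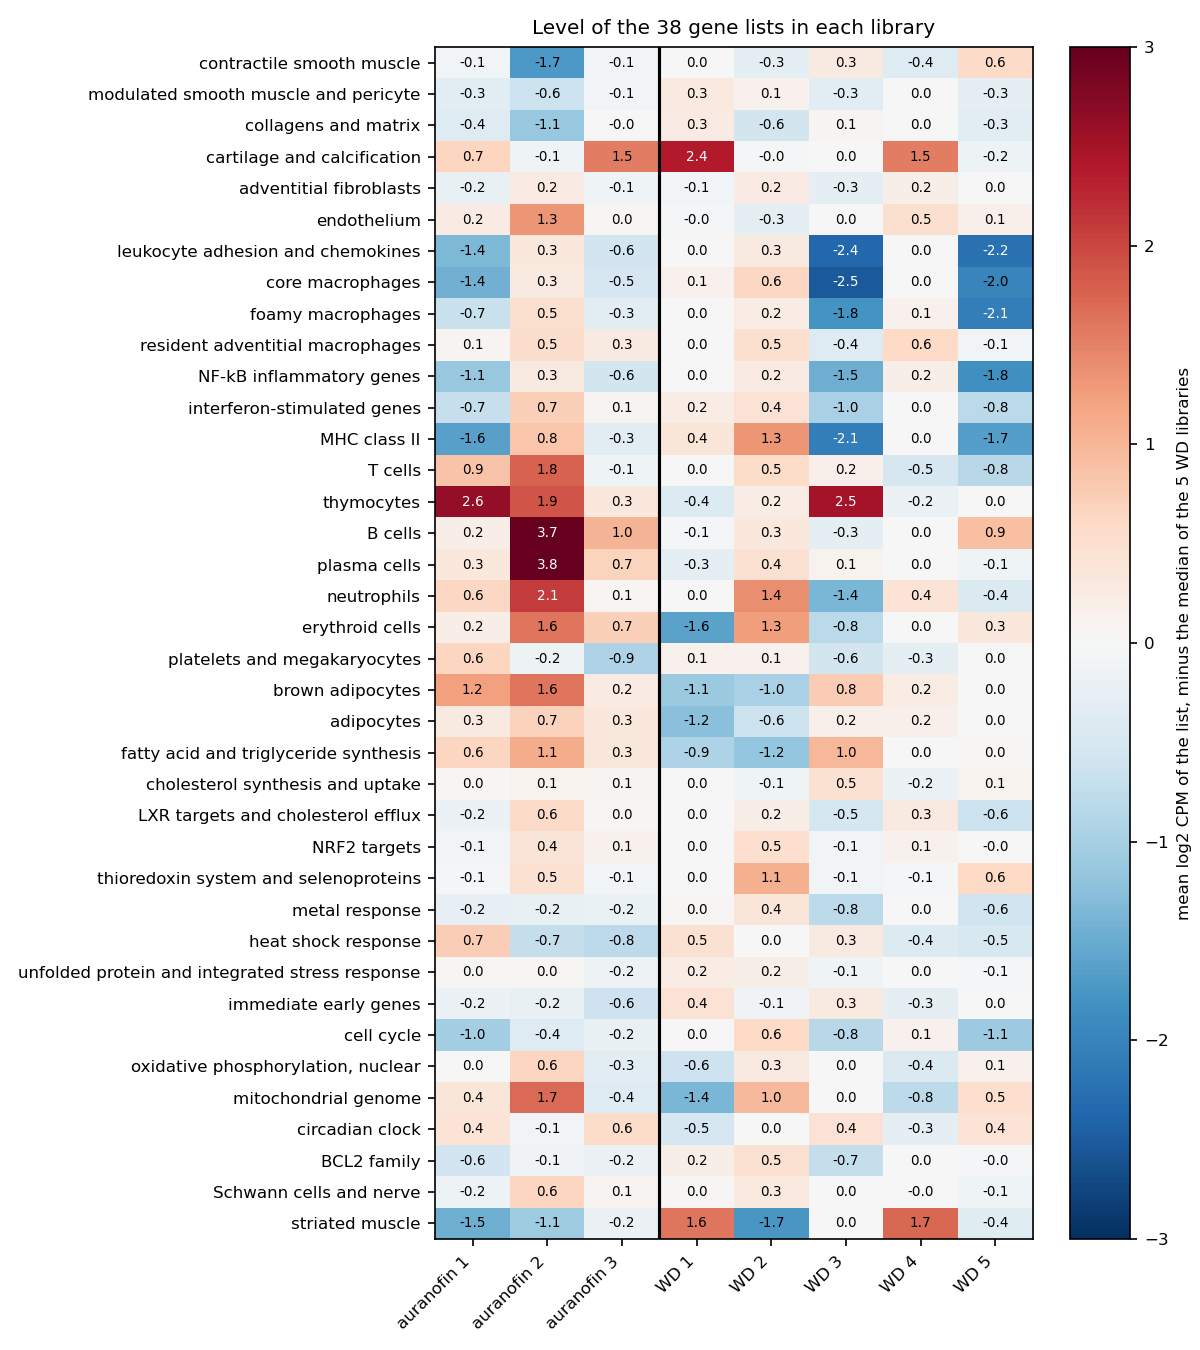
Mean log2 CPM of the tested members of each of the 38 gene lists in each library, minus the median of the 5 WD libraries, with the auranofin libraries left of the line and the WD libraries right of it. Auranofin 2 stands out for B cells and plasma cells, auranofin 1 and WD 3 for thymocytes, and WD 1 and WD 4 for striated muscle.

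Macrophage genes spread widely among the WD libraries, and for Cd68, Spp1 and Trem2 the auranofin libraries lay inside that spread. Cd68, a lysosomal protein of macrophages, stood at 64.5, 192 and 109.7 CPM in the auranofin libraries, against 209, 350.2, 18.5, 174 and 25.5 CPM in the WD libraries. WD 3 and WD 5 were the lowest, then auranofin 1, and the log2 fold change of -0.35 (SE 0.78; -0.83 without auranofin 2) was smaller than its error. Spp1, osteopontin, stood at 628, 2093 and 1119.9 CPM in the auranofin libraries, against 2571, 2787, 134, 2099 and 131 CPM in the WD libraries, and Trem2, a lipid-sensing receptor of foamy macrophages, at 18.6, 70.1 and 36.4 CPM in the auranofin libraries, against 78.3, 118, 5.68, 56.1 and 6.24 CPM in the WD libraries. For both genes WD 3, WD 5 and auranofin 1 were the 3 lowest libraries. The 16 core macrophage genes had a median of -0.21, with a range of -0.77 without auranofin 2 to 0.21 without WD 2 over the libraries left out in turn, and 0 of 16 had an unadjusted p under 0.05 with or without auranofin 2. The 15 foamy macrophage genes had a median of 0.00 (-0.26 without auranofin 2); its members Cd36, Lpl and Fabp4, which fat cells express too, had log2 fold changes of 1.18 (SE 0.49; 0.91 without auranofin 2), 1.04 (SE 0.45; 0.65 without auranofin 2) and 1.09 (SE 0.55; 0.46 without auranofin 2). MHC class II genes, which present antigen, had a median of -0.18, and -1.07 without auranofin 2, with 6 and 8 of 8 lower, but 0.40 without WD 2. H2-Ab1 of this list stood at 43.8, 259.7 and 118 CPM in the auranofin libraries, against 217, 445, 37.9, 160.0 and 63.7 CPM in the WD libraries, and the auranofin values lay inside the WD range.

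In the list of NF-kB and inflammatory genes Rela was the only 1 of 19 whose groups did not overlap, against 1.32% of all genes tested with every auranofin library below every WD library. Rela, the main activating subunit, stood at 42.8, 46.7 and 54.6 CPM in the auranofin libraries, against 63.7, 77.2, 61.5, 61 and 72.9 CPM in the WD libraries. Its log2 fold change was -0.49 (SE 0.16), and -0.47 without auranofin 2. Relb, a subunit of the noncanonical pathway, stood at 11.4, 17.9 and 16.8 CPM in the auranofin libraries, against 21, 30.03, 16, 19.9 and 23.5 CPM in the WD libraries, with a log2 fold change of -0.52 (SE 0.23; -0.65 without auranofin 2), and Nfkb2, its partner, had -0.33 (SE 0.18; -0.30 without auranofin 2); the groups of both overlapped. The 19 genes had a median of -0.04, and -0.49 without auranofin 2, with 12 and 17 of 19 lower, and it changed sign over the libraries left out in turn, at -0.49 without auranofin 2 to 0.20 without WD 4. The cytokines Il1b, Tnf and Ccl2 changed sign or size with auranofin 2, with log2 fold changes of 0.49 (SE 1.10), -0.42 (SE 0.76) and -0.60 (SE 0.81), or -2.05, -1.31 and -1.09 without it. Il1b, interleukin 1 beta, stood at 1.63, 36.6 and 3.05 CPM in the auranofin libraries, against 9.56, 27.2, 0.776, 10.4 and 0.71 CPM in the WD libraries. Vcam1, an adhesion molecule for leukocytes, had a log2 fold change of -0.15 (SE 0.55; -0.29 without auranofin 2).

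Interferon-stimulated genes were mixed, with 11 of 18 higher, and 6 of 18 without auranofin 2. Their medians were 0.20 and -0.31. Rsad2, the antiviral protein viperin, stood at 8.68, 16.9 and 14.1 CPM in the auranofin libraries, against 7.12, 5.53, 5.03, 9.06 and 6.8 CPM in the WD libraries, with a log2 fold change of 0.98 (SE 0.25), and 0.76 without auranofin 2. Auranofin 1 lay just below WD 4, so the groups overlapped. Ifit2, which binds viral RNA, stood at 19.9, 16.7 and 19.7 CPM in the auranofin libraries, against 14.3, 8.59, 16.2, 15.9 and 10.2 CPM in the WD libraries. It was the only 1 of 18 in its list whose groups did not overlap, against 1.45% of all genes with every auranofin library above every WD library. The log2 fold change of Ifit2 was 0.52 (SE 0.21), and 0.60 without auranofin 2. Its relative Ifit1 had a log2 fold change of 0.49 (SE 0.32), and 0.08 without auranofin 2.

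No gene of the pathways that auranofin is known to engage passed the test, but neither did any other of the 18055 genes tested (0%). Txnrd1, the cytosolic thioredoxin reductase, stood at 46.6, 39.3 and 54.2 CPM in the auranofin libraries, against 57.8, 42.9, 45.3, 55.7 and 29.6 CPM in the WD libraries, and all 3 auranofin libraries lay inside the WD range. Txnrd2, the mitochondrial enzyme, and Txnrd3, the enzyme of testis, had log2 fold changes of 0.21 (SE 0.27; -0.06 without auranofin 2) and -0.15 (SE 0.22; -0.23 without auranofin 2). Thioredoxin, Txn1, stood at 95.9, 149.6 and 91.2 CPM in the auranofin libraries, against 116, 357, 81.9, 96.9 and 159.9 CPM in the WD libraries, where WD 2 was far above the rest. These are RNA levels, and enzyme activity was not measured here. Of 22 thioredoxin and selenoprotein genes 16 were lower, with a median of -0.33, and 18 without auranofin 2, with a median of -0.60. Over the libraries left out in turn the median ran from -0.60 without auranofin 2 to -0.023 without WD 2. Unadjusted, 3 of the 22 were lower at a p under 0.05, namely Selenom, Selenos and Msrb1, against 3.79% of all genes, and 0 of 22 without auranofin 2, against 1.36%. Selenom, a selenoprotein of the endoplasmic reticulum, stood at 49.8, 69 and 58.4 CPM in the auranofin libraries, against 87.8, 285, 66.9, 56.2 and 186 CPM in the WD libraries, and Msrb1, a methionine sulfoxide reductase, at 80.3, 85 and 87.2 CPM in the auranofin libraries, against 112, 288, 87.8, 80.8 and 225 CPM in the WD libraries. In both, WD 2 and WD 5 were the high libraries, WD 1 also lay above the auranofin range, and WD 3 and WD 4 lay near or inside it.

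The NRF2 target list had a median of 0.04, and -0.11 without auranofin 2, with 11 and 7 of 20 higher and 0 at an unadjusted p under 0.05. Hmox1, heme oxygenase, stood at 33.5, 52.1 and 46 CPM in the auranofin libraries, against 54.3, 67.3, 11.2, 48.8 and 18.2 CPM in the WD libraries, which put it low in the same WD libraries as the macrophage genes. Nqo1, a quinone reductase, stood at 18.9, 13.4 and 18.4 CPM in the auranofin libraries, against 18.2, 34.9, 17.2, 17.1 and 26.9 CPM in the WD libraries, Gclm, a subunit of the glutathione-making enzyme, at 28.4, 31.6 and 32.4 CPM in the auranofin libraries, against 24.4, 28.9, 30.4, 27.1 and 27.8 CPM in the WD libraries, and Slc7a11, the cystine carrier, at 0.709, 4.68 and 1.38 CPM in the auranofin libraries, against 1.36, 2.04, 0.245, 2.34 and 0.254 CPM in the WD libraries. Nqo1 was lowest in auranofin 2 and highest in WD 2, Gclm spanned less than 10 CPM over all 8 libraries, and Slc7a11 was highest in auranofin 2. Metal response genes had a median of -0.18 (-0.00 without auranofin 2), and Mt1, a metallothionein, stood at 135, 159.8 and 92.1 CPM in the auranofin libraries, against 152, 462, 61.6, 158 and 237 CPM in the WD libraries, with WD 2 the highest and WD 3 the lowest. Mt2 had a log2 fold change of -0.46 (SE 0.72; -0.68 without auranofin 2). Heat shock genes had a median of -0.11, with a range of -0.56 without auranofin 1 to 0.27 without auranofin 3. In that list Cryab, a small heat shock protein of muscle, stood at 155, 86.6 and 119 CPM in the auranofin libraries, against 209, 441, 161, 142 and 309 CPM in the WD libraries, and Hspd1, a mitochondrial chaperone, had a log2 fold change of 0.62 (SE 0.29; 0.68 without auranofin 2). The unfolded protein and integrated stress response had a median of -0.15 (-0.08 without auranofin 2). Atf4, its central transcription factor, stood at 78, 80.9 and 79.7 CPM in the auranofin libraries, against 109, 124, 99.1, 84.2 and 101 CPM in the WD libraries. It was the only 1 of 16 in its list whose groups did not overlap, against 1.32% of all genes with every auranofin library below every WD library. Auranofin 2 came closest to WD 4, and the log2 fold change was -0.38 (SE 0.21), and -0.39 without auranofin 2.

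The lists of cholesterol handling had medians near 0. The 22 tested genes of cholesterol synthesis and uptake had a median of -0.07, and -0.09 without auranofin 2. Members differed in direction: Mvk, mevalonate kinase, stood at 7.38, 7.77 and 8.75 CPM in the auranofin libraries, against 12.3, 21.7, 11.8, 8.18 and 22.5 CPM in the WD libraries, and Insig1, the sterol sensor that holds back SREBP, at 63.6, 111 and 55.2 CPM in the auranofin libraries, against 22.8, 24.4, 82, 27.1 and 31.2 CPM in the WD libraries. WD 3, high in fat synthesis genes, was also high in Insig1. LXR targets had a median of 0.10 (-0.17 without auranofin 2). The nuclear genes of oxidative phosphorylation had a median of 0.21, and -0.05 without auranofin 2. The 13 genes of the mitochondrial genome had a median of 0.70, and -0.09 without it, and all 13 were higher with auranofin 2 included and 5 of 13 without.

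The same drug could be read in the 5 libraries outside this comparison, the combination against atorvastatin alone. Of the 18055 genes 0 passed there, with a smallest adjusted p of 1, and 237 (1.31%) had an unadjusted p under 0.05. Of the 16 named higher genes 7 were also higher in the combination, against 52.4% of all genes, with a median log2 fold change of -0.16. Of the 12 named lower genes 5 were also lower, against 47.6% of all genes, with a median of 0.09. Among these higher and lower genes, none that kept its direction had an unadjusted p under 0.05 there. The shares are near those of all genes. Foxs1 was among the 5, at 9.32 and 9.92 CPM in the combination libraries, against 13.2, 12.8 and 20.5 CPM in the atorvastatin libraries, with a log2 fold change of -0.69 (SE 0.46). Creb3l1 stood at 38.4 and 31.8 CPM in the combination libraries, against 45, 45.5 and 42 CPM in the atorvastatin libraries, with a log2 fold change of -0.33 (SE 0.19). Fhl2 went the other way, at 10.4 and 20.9 CPM in the combination libraries, against 7.37, 6.95 and 11 CPM in the atorvastatin libraries, with a log2 fold change of 0.89 (SE 0.37). Of these higher and lower genes Fhl2 was the only 1 with an unadjusted p under 0.05 in these libraries, 0.0301, and its adjusted p was 1. Among the list members named above, Car2, Actc1 and Myh6 also had an unadjusted edgeR p under 0.05 there, and none of them passed. The other list members are not given gene by gene in these libraries. Car2 was higher in both comparisons, here with a log2 fold change of 1.27 (SE 0.52). Actc1 and Myh6, lower with auranofin alone, had log2 fold changes of 5.98 and 8.04 here. Both were far higher in combination 2 than in combination 1. The medians of the 38 lists in these libraries ran from -0.364 for cartilage and calcification to 3.58 for striated muscle, with 2.21 for platelets and megakaryocytes. Kitl stood at 21.4 and 33.5 CPM in the combination libraries, against 33.5, 28.4 and 26.8 CPM in the atorvastatin libraries and Ighg2c at 2.63 and 0.85 CPM in the combination libraries, against 0.0378, 0.342 and 6.51 CPM in the atorvastatin libraries. Bik had a log2 fold change of -0.15 (SE 0.41), and Nr1d2 of 0.45 (SE 0.36). In the test of whether the auranofin difference changes with atorvastatin, 0 genes passed, with a smallest adjusted p of 0.791, and 559 (3.1%) had an unadjusted p under 0.05.

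**Figure D5:**
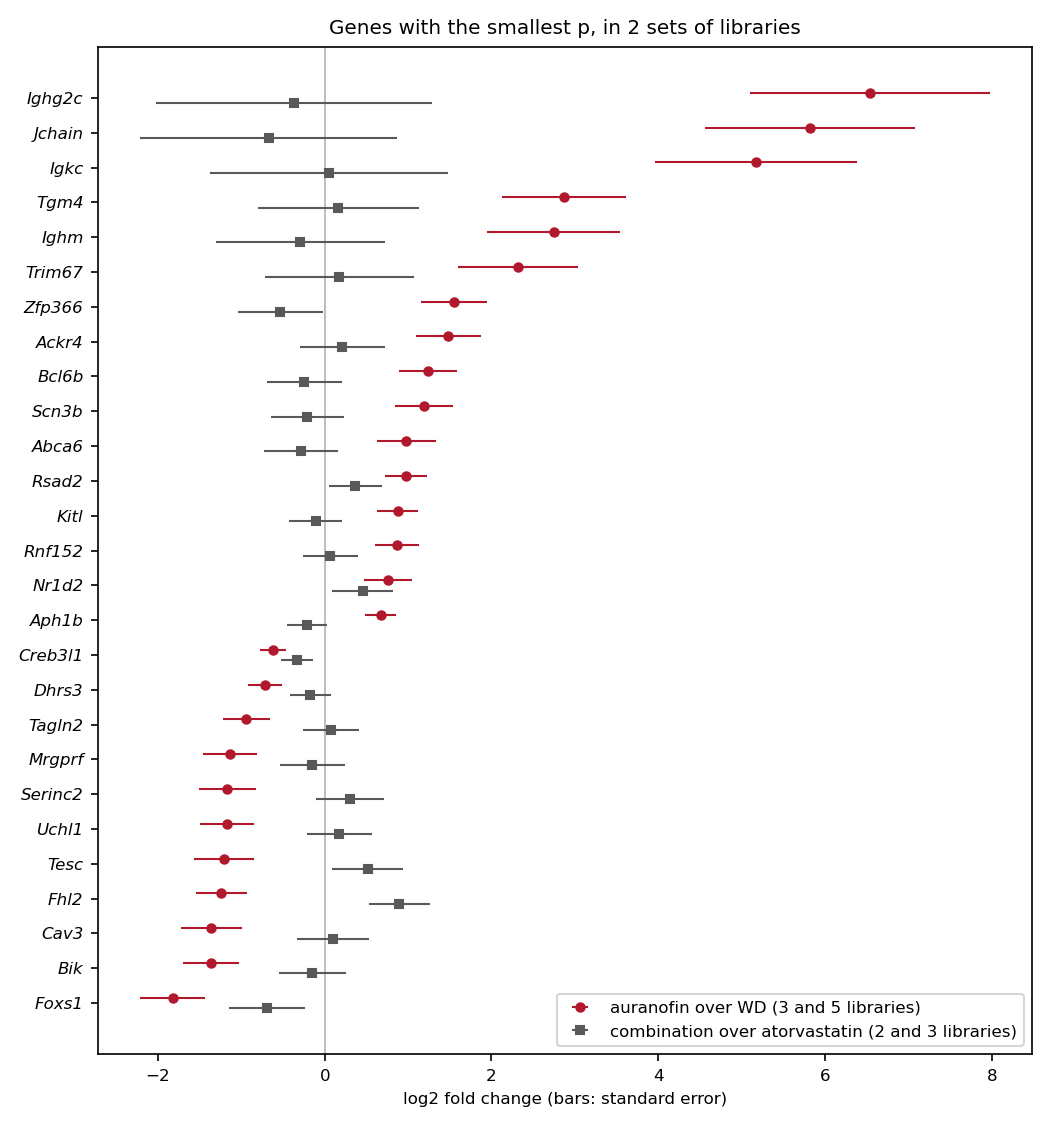
Log2 fold change with its standard error (bars) of 27 named genes, auranofin over WD (circles, 3 and 5 libraries) and combination over atorvastatin (squares, 2 and 3 libraries). Foxs1 lies at -1.82 (circle) and -0.69 (square), and Fhl2 at -1.24 and 0.89, on either side of 0.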

How the data were processed

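Poly-A RNA of whole aorta was sequenced for 13 libraries of 4 groups. Raw counts per gene were deposited by the authors as 1 table of 56953 genes, 1554 of them without a symbol. Per the submitters' processing notes, tools named are STAR 2.6.1d, featureCounts and Subread 1.6.3, with build GRCm39; the library kit is non-stranded per the labels, so reads of overlapping genes cannot be told apart. Gene positions are not used, since the annotation at hand is of another build; promoter windows are RefSeq's for GRCm38.p6.

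The counts were used as deposited. filterByExpr left 18055 genes, which hold 99.89% to 99.95% of each library's counts. Counts were scaled with TMM and fitted with edgeR 4.0.16 (R 4.3.3; 1 mean for each of the 4 groups, quasi-likelihood test, two-sided, Benjamini-Hochberg over all genes tested, threshold 0.05). The SE was taken as the log2 fold change over the root of its F value. The same steps were tested on simulated data. No pair of the 8 libraries agreed within sampling noise; the closest differed by a chi-squared of 27.7 per degree of freedom. Counting error weighs most on genes at low levels, such as Cd3e at 0.0507 CPM in WD 5, and its share of the spread was not tested.

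The 38 lists (542 genes), the 28 panel genes and the libraries compared were chosen with earlier results of these data known. Named genes are, per direction, the 12 with the smallest p and the 6 with the smallest p without auranofin 2 among genes whose groups do not overlap (mean log2 CPM of at least 0; no predicted genes, clone names or immunoglobulin segments), up to 3 members per list by p, the panel, and genes that another tool passes. Gene list members without a row in these ranks are given as counts. Alternatives were DESeq2 1.42.0, limma 3.58.1 (voom with quality weights), DESeq2 size factors, mitochondrial genes removed, no filter, a CPM of at least 1 in 2 libraries, the 2 groups alone, library totals without TMM factors, a replicate block, and each library left out. A fit without both auranofin 2 and WD 2 was chosen after seeing the data. Figures were drawn with matplotlib 3.10.9. Some genes that the rule picked are not reported here.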

Additional observations from a re-analysis of the deposited data

Results flagged for a closer look

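Each level named above was checked in the 5 WD libraries for a highest or lowest library that stood far from the next one, by Dixon's test at 95%; groups of 3 are too small for it. Of 100 such checks 8 stood out, and chance alone gives about 1 in 20. WD 2 was the high library for thioredoxin, Txn1, at 357 CPM, against 160 CPM or less in the other WD libraries, and for Mgp, the calcification inhibitor, at 11660.4 CPM. WD 3 was the high library for Ighg2c at 1.51 CPM, for the T cell factor Tcf7 at 6.54 CPM, for the elongase Elovl6 at 111 CPM and for Insig1 at 82.0 CPM, and the low library for Apoe at 6.21 CPM. WD 5 was the high library for Cd79a at 4.77 CPM. Why these libraries stood apart was not tested.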

How the results depend on the processing

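The count of genes at an adjusted p under 0.05 between auranofin and WD stayed at 0 in all settings but no low-count filter, with 13, and DESeq2, with 2; it was 0 to 0 over the libraries left out in turn. The unadjusted count of 1173 was 2006 with no filter, 669 with the auranofin and WD libraries alone, 378 (without auranofin 2) to 2130 (without WD 4) over the libraries left out in turn, and 265 without both auranofin 2 and WD 2. Genes whose groups do not overlap numbered 610 to 2149 over libraries left out in turn, against 501, a rise that fewer samples bring by construction, and 1644 without both. With library totals in place of TMM factors they were 95 above and 325 below, against 262 and 239. For auranofin added to atorvastatin the count of 0 was 3 with no filter, 5 with DESeq2 and 0 to 8 over libraries left out, the 8 without combination 1. For the interaction it was 11 with DESeq2 and 0 to 2, the 2 without combination 1. The cause was not tested.

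Of 98 genes named in the text 82 kept their sign in every setting and 16 did not. With limma the log2 fold change turned to -0.11 for Txnrd1, -0.00504 for Hmox1, -0.12 for Slc7a11, -1.24 for Il1b, 0.0164 for Myh11 and -0.27 for Apoe. With no filter Txnrd1 was at -0.0031. Over libraries left out in turn the range was -0.35 to 0.51 for Apoe, -0.83 to 0.20 for Cd68, -1.19 to 0.23 for H2-Ab1, -0.12 to 0.40 for Hmox1, -0.028 to 3.29 for Ighm, -2.05 to 1.34 for Il1b, -0.74 to 0.31 for Mt2, -0.48 to 0.31 for Myh11, -0.25 to 1.26 for Slc7a11, -0.82 to 0.0581 for Spp1, -1.31 to 0.13 for Tnf, -0.94 to 0.18 for Trem2, -0.11 to 0.12 for Txnrd1, -0.06 to 0.34 for Txnrd2 and -0.39 to 0.34 for Vcam1. Without both auranofin 2 and WD 2 the value was -0.0804 for Txnrd2, -0.00438 for Slc7a11, 0.11 for Mt2, -1.18 for Il1b, 0.09 for Myh11 and -0.28 for Apoe. Foxs1 and Ighg2c passed with DESeq2, each at an adjusted p of 0.0276, and Ighg2c, Jchain and Igkc with no filter, at 0.0251 to 0.0382. Of the 38 list medians 17 changed sign over the libraries left out in turn; 11 stayed negative and 10 positive. None of the settings checked for it moved the median of all genes by over 0.1. Library totals without TMM factors were not among those settings.

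The replicate numbers are not shown to pair the libraries: the deviations of same-numbered auranofin and WD libraries correlated at -0.01, 0.43 and 0.16 for numbers 1, 2 and 3. With the replicate block over the auranofin and WD libraries 0 genes passed, the unadjusted count was 716, and the log2 fold change turned to -0.0475 for Txnrd1, 0.0749 for Spp1, -0.0279 for Il1b, 0.0114 for Ccl2 and 0.10 for Vcam1. With the block 0 genes passed for auranofin added to atorvastatin and for the interaction. Of the 3 auranofin libraries 1, number 2, correlated best with its own number. Whether depth or the number of libraries limits the calls was not tested.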

Other observations

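Lists of nerve, platelet and resident macrophage genes were among the 38 fitted in the same comparison, and their values are given here. The 12 Schwann cell and nerve genes had a median log2 fold change of 0.11, and -0.04 without auranofin 2. Gfra3, a receptor for the neurotrophic factor artemin, stood at 0.918, 1.45 and 1.71 CPM in the auranofin libraries, against 1.72, 3.96, 2.53, 1.53 and 2.84 CPM in the WD libraries, with a log2 fold change of -0.88 (SE 0.36; -0.92 without auranofin 2). Pmp22, a myelin protein, stood at 166, 162 and 185 CPM in the auranofin libraries, against 202, 234, 185, 178 and 262 CPM in the WD libraries. The 10 genes of resident adventitial macrophages had a median of 0.11 (-0.11 without auranofin 2). In that list Cbr2, a carbonyl reductase, stood at 222, 168 and 212 CPM in the auranofin libraries, against 256, 572, 210.0, 202 and 524 CPM in the WD libraries, high in WD 2 and WD 5, and Gas6, a ligand of the TAM receptors, had a log2 fold change of -0.53 (SE 0.25; -0.36 without auranofin 2). Platelet and megakaryocyte genes, 9 of 10 listed, had a median of -0.02 (0.03 without auranofin 2), and Gp1bb was at 0 counts in all 8 libraries. In the combination over atorvastatin the median of this list was 2.21. The 18 leukocyte adhesion and chemokine genes had a median of 0.06, and -0.48 without auranofin 2, with 16 of 18 then lower. Cx3cl1, a chemokine anchored on endothelium, stood at 25.1, 30.04 and 44.8 CPM in the auranofin libraries, against 87.5, 42.9, 24.2, 51.1 and 21 CPM in the WD libraries.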
